A study of Mus musculus with 14 samples.

Results

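The molybdenum cofactor genes followed here are 8 of 34452 mouse genes in the count table. They are Mocs1, Mocs2, Mocs3 and Gphn, which build the cofactor, Mocos, which finishes it for one branch of enzymes, and Aox1, Aox3 and Xdh, which encode oxidases of that branch. The set was chosen by the levels of Mocos, which in each of the 7 mice were higher in the Nrf2 eye, so the Mocos values, from either group of eyes, are given as a description. The other 7 genes were added for their function, with earlier results of these data known, and all 8 passed the filter on low counts. RNA came from the retinal pigment epithelium (RPE), a pigmented cell sheet next to the photoreceptors, in 7 rd1 mice aged 20 days. The paper counts fewer paired replicates at this age than the 7 labelled pairs, without naming a pair left out, and all 7 were used here. The mice are FVB/N animals in which loss of Pde6b function kills the rods, and each gave 1 library per eye. Both eyes of every mouse carried AAV-Best1-GFP, and 1 eye also carried AAV-Best1-Nrf2, a vector in another capsid with human Nrf2 cDNA under the human Best1 promoter, which is active in the RPE. These eyes are called Nrf2 and control and are numbered by mouse. All animals carried the rd1 mutation, no eye lacked virus, and the transgene cannot be told apart from the added vector itself.

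The molybdenum cofactor is a pterin that holds a molybdenum atom and is made from GTP. Sulfite oxidase and the amidoxime-reducing components use the cofactor as it is, whereas xanthine dehydrogenase and the aldehyde oxidases work only after the sulfurase encoded by Mocos has exchanged an oxygen on molybdenum for sulfur. Xanthine dehydrogenase makes urate from hypoxanthine and xanthine, and aldehyde oxidases oxidise aldehydes and many nitrogen heterocycles, drugs among them. Both kinds of enzyme can pass electrons to oxygen.

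Of the 8 genes, the finishing enzyme Mocos and a single oxidase, Aox1, stood far above their control levels in Nrf2 eyes. Aox1 rose 19.5-fold, and Mocs1, which begins the pathway, rose 1.79-fold. The later cofactor genes Mocs2, Mocs3 and Gphn and the oxidases Aox3 and Xdh did not pass the test. Among the 7 genes besides Mocos, 2 passed the threshold of an adjusted p under 0.05 in edgeR's paired quasi-likelihood test, against 3.43% of all 16289 genes tested. Both were higher, as were 2.94% of all genes, and 0 were lower in edgeR. At an unadjusted p under 0.05 the lower count was 1, and it was 0 by DESeq2 and 1 by voom, where 7.49%, 4.33% and 6.17% of all genes were lower. The median log2 fold change of the 8 genes was -0.09, beside -0.04 over all genes, so the set did not move as a block. Levels below are counts per 1000000 counts of the library (CPM), and a log2 fold change, or a log2 difference within a mouse, is Nrf2 minus control after TMM scaling, so it need not equal the ratio of the CPM. In bulk RNA, fewer cells of a type and less RNA per cell cannot be told apart.

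**Figure D1:**
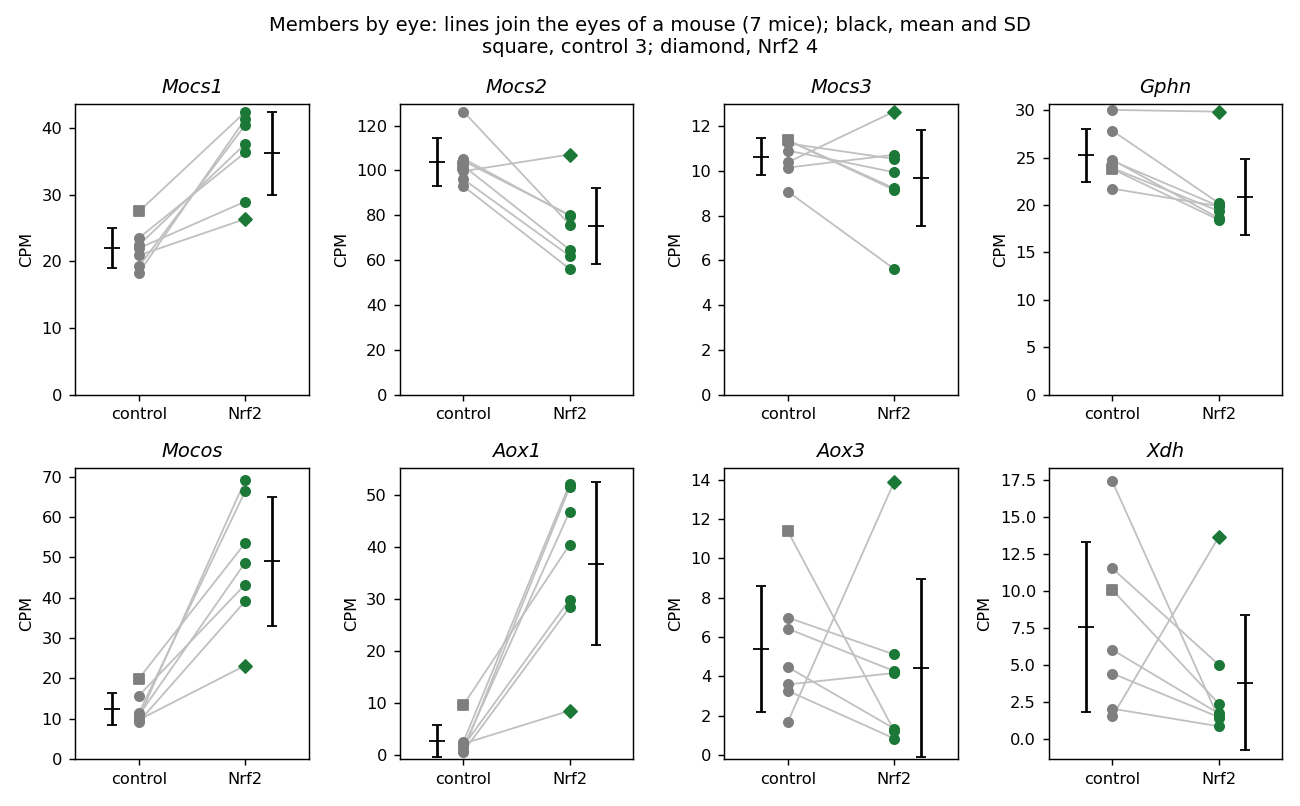
Level of each of the 8 genes in every eye, in CPM on linear axes, with a line joining the eyes of a mouse and black bars for the mean and SD of 7 eyes. Mocos and Aox1 lie far higher in most Nrf2 eyes than in control eyes, while the Nrf2 4 library (diamond) is the highest Nrf2 eye for Mocs2, Mocs3, Gphn, Aox3 and Xdh and the lowest for Mocos, Aox1 and Mocs1.

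The vector transcript was read first, because 2 libraries bear on every value. Human NFE2L2 stood at 4577 to 8711 CPM in 6 Nrf2 eyes and at 1163 CPM in Nrf2 4. In 6 control eyes it lay between 1.12 and 175 CPM, but in control 3 it was 1163 CPM, as much as in Nrf2 4. The library labelled control 3 thus carried a large amount of a transcript that its label does not name, so the fold change of each of the 8 genes is also given without mice 3 and 4, when 4.50% of all genes passed. Total counts ran from 16548349 to 50543008 per library, and of 12 RPE marker genes 11 had at least 10 counts in all 14 libraries, with a summed level of 17821 to 37517 CPM. Rod markers summed to 7.42 to 104 CPM in Nrf2 eyes and 23.6 to 523 CPM in control eyes, and cone markers to 17.5 to 103 CPM and 41.3 to 1054 CPM. Of these lists, 2 of 8 cone markers and 1 of 12 RPE markers passed the threshold, all lower in Nrf2 eyes, and 0 of 8 rod markers did so in edgeR. No marker of the 10 lists examined was at 0 in all libraries, and the part of other cell types in the results below was not tested.

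Mocos (ENSMUSG00000039616, build GRCm38, chromosome 18, 24653691 to 24701575) encodes the sulfurase. In Nrf2 eyes 1 to 7 its level was 69.1, 39.1, 53.5, 23.2, 43.3, 48.7 and 66.4 CPM. In control eyes 1 to 7 it was 10.2, 9.21, 19.9, 9.68, 15.7, 10.8 and 11.3 CPM. The groups did not overlap, which held for 1.79% of all genes tested. The lowest Nrf2 eye was Nrf2 4 and the highest control eye was control 3, the libraries with the same vector level. The means were 49.0 ± 15.9 and 12.4 ± 3.95 CPM (SD, n = 7), and the log2 fold change was 2.08 with a standard error (SE) of 0.22, or 4.24-fold. Without mice 3 and 4 it was 2.31. Within mice the difference ran from 1.35 in mouse 4 to 3.12 in mouse 1 on the log2 scale. Counted down from the most raised gene, Mocos stood at place 190 of 16289.

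Aox1 (ENSMUSG00000063558, chromosome 1, 58029931 to 58106413) is the member of the aldehyde oxidase family that is shared with humans. Its level in Nrf2 eyes 1 to 7 was 52.1, 46.8, 40.4, 8.50, 29.9, 28.4 and 51.4 CPM. In control eyes 1 to 7 it was 2.48, 1.43, 9.59, 2.16, 1.68, 0.631 and 0.820 CPM. The ranges touched at 1 point, where control 3 exceeded Nrf2 4. Aox1 was higher on the Nrf2 side in 7 of 7 mice, with means of 36.8 ± 15.7 and 2.68 ± 3.12 CPM (SD, n = 7). On the log2 scale the fold change came to 4.29 (SE 0.56, edgeR adjusted p = 0.0101). The smallest differences within a mouse were 2.05 in mouse 4 and 2.35 in mouse 3, and the largest was 6.00 in mouse 7. Without mice 3 and 4 the log2 fold change was 5.08 (SE 0.31, edgeR adjusted p = 0.0020). With Nrf2 4 and control 3 set aside, the Nrf2 eyes lay at 28.4 to 52.1 CPM and the control eyes at 0.631 to 2.48 CPM. Counted down from the most raised gene, Aox1 stood at place 32 of 16289. Its control level rests on few counts, with 15 to 317 per control library against 208 to 2599 per Nrf2 library.

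Aox3 (chromosome 1, 58113130 to 58200698) is the next gene downstream and encodes a second aldehyde oxidase of mice. It had 14 to 376 counts per library. The lowest, median and highest levels were 0.846, 4.17 and 13.9 CPM in Nrf2 eyes and 1.70, 4.47 and 11.4 CPM in control eyes, so the groups overlapped widely. Its log2 fold change was -0.64 (SE 0.68, edgeR adjusted p = 0.66). The Nrf2 eye was lower in 5 of 7 mice, but in mouse 4 it was higher by 3.08 on the log2 scale, and without mice 3 and 4 the log2 fold change was -0.77 (edgeR adjusted p = 0.36). Aox4 (58210397 to 58268597) and Aox2 (58278326 to 58380259) follow in the same cluster and encode the remaining aldehyde oxidases of the mouse. Aox2 stood at only 8 to 54 counts, with 1.03 ± 0.35 CPM in Nrf2 and 0.461 ± 0.18 CPM in control eyes (SD, n = 7). It was higher in 7 of 7 mice without passing the threshold (log2 fold change 1.28, SE 0.38, edgeR adjusted p = 0.12). Aox4 was too low to be tested and reached 130 counts in a single library, Nrf2 2. Beyond the cluster, Bzw1 had a log2 fold change of -0.04 (edgeR adjusted p = 0.91), while Clk1 fell by 0.69 (SE 0.12, edgeR adjusted p = 0.0192) and was lower in the Nrf2 eye of 7 mice. On the other side, Sgo2a and Kctd18 did not pass the threshold, so of the tested genes from Kctd18 to Clk1 Aox1 was the only one called higher by edgeR, whereas DESeq2 and voom also called Aox2 higher. The fall of Clk1 lost its call without mouse 3, 5 or 7 (edgeR adjusted p = 0.0663, 0.0690 and 0.0801). Aox1 shared no 31-base word of sequence with Aox2, and neither Aox3 nor Aox4 was among the genes with which it shared most words. Aox2 and Aox4 shared 16 with each other, which makes the division of counts between those less certain. Of the 8 genes, Xdh shared the largest part of its words with other genes, 10.4%, followed by Mocs1 with 2.56% and Aox1 with 1.17%.

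The upstream sequences of the neighbours Aox1 and Aox3 and of the cofactor genes Mocs1 and Mocs2 are printed to set genes that rose beside genes that did not. They are the bases before the annotated gene start in RefSeq windows (build GRCm38.p6, plus strand, windows of 250 bases before to 50 bases after the start of each gene), which held 6 of the 8 genes and had no entry for Mocos and Xdh. The positions are chr1:58029719-58029930 for Aox1, chr1:58112886-58113129 for Aox3, chr17:49428114-49428361 for Mocs1 and chr13:114817987-114818235 for Mocs2. Capitals mark the core of the antioxidant response element, TGACNNNGC, to which NRF2 binds with small MAF proteins, searched on both strands.
Aox1: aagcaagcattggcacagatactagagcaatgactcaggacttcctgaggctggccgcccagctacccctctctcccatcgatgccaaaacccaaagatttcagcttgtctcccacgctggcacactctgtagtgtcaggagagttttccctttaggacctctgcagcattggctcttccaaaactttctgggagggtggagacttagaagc
Aox3: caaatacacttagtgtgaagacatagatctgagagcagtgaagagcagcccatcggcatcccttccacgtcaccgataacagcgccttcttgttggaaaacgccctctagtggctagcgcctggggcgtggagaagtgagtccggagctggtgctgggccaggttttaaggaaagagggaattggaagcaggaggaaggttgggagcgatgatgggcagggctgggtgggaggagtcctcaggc
Mocs1: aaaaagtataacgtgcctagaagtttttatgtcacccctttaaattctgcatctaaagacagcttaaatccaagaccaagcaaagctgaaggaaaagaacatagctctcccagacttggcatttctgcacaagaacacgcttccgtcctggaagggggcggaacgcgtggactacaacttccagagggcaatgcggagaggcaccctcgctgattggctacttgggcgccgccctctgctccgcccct
Mocs2: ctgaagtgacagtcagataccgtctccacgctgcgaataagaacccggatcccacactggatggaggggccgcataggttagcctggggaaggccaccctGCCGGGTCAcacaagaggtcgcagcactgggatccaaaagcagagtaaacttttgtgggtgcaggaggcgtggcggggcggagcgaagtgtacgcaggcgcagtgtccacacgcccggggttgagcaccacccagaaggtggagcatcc
Of the 6 genes with a window, the core was present in that of Mocs2 alone, as GCCGGGTCA, which reads the core on the opposite strand and begins 150 bases before the start. It occurred in 4071 of 32851 windows of the same length, or 12.4%. The windows of Aox1 and Mocs1, which rose, held no match, and neither did those of Aox3, Mocs3, Gphn, Aox2 and Aox4. No match says only that these letters are not in this window.

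Xdh (chromosome 17, 73883895 to 73950196, minus strand) encodes xanthine dehydrogenase. Its lowest, median and highest levels were 0.890, 1.75 and 13.6 CPM in Nrf2 eyes and 1.56, 6.04 and 17.4 CPM in control eyes, with 29 to 413 counts per library. The Nrf2 eye was lower in 6 of 7 mice and the groups overlapped. The exception was mouse 4, where the Nrf2 eye was higher by 3.18 on the log2 scale, nearly the mirror image of mouse 6, at -3.51. The log2 fold change was -1.25 (SE 0.70, edgeR adjusted p = 0.38). It was -1.74 without mouse 4 (edgeR adjusted p = 0.0250), a fit in which 2050 of 16318 genes passed, 1005 of them lower. Without mice 3 and 4 it was -1.72 (edgeR adjusted p = 0.0877). Xdh passed in 1 of 15 alternatives, the fit with mouse 4 alone left out.

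Xdh moved across libraries with markers of surface epithelium (Krt5, Krt14, Krt12, Krt15, Cdh1 and Perp), cells that the dissected tissue can also hold. None of the 6 markers was at 0 in all libraries, 0 of 6 passed the threshold, and their sum was 2333 to 22481 CPM (median 7843) in Nrf2 and 2290 to 51596 CPM (median 22280) in control eyes. The 6 libraries with the highest sums, from 21685 to 51596 CPM, were the 6 with the highest Xdh, from 5.04 to 17.4 CPM. They were control 2, 3, 5 and 6 and Nrf2 4 and 5. In the other 8 libraries the sum was 2290 to 14066 CPM and Xdh lay between 0.890 and 4.45 CPM. For Aox3, 4 of the 6 libraries were shared. Among the 8 genes, Mocs2 was most like Xdh over the 14 libraries (Pearson's r of log2 CPM 0.84), ahead of Aox3 (0.68). Its highest levels, 126 CPM in control 6 and 107 CPM in Nrf2 4, fell in these 6 libraries. The part of these cells in the Xdh, Aox3 and Mocs2 values was not tested.

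**Figure D2:**
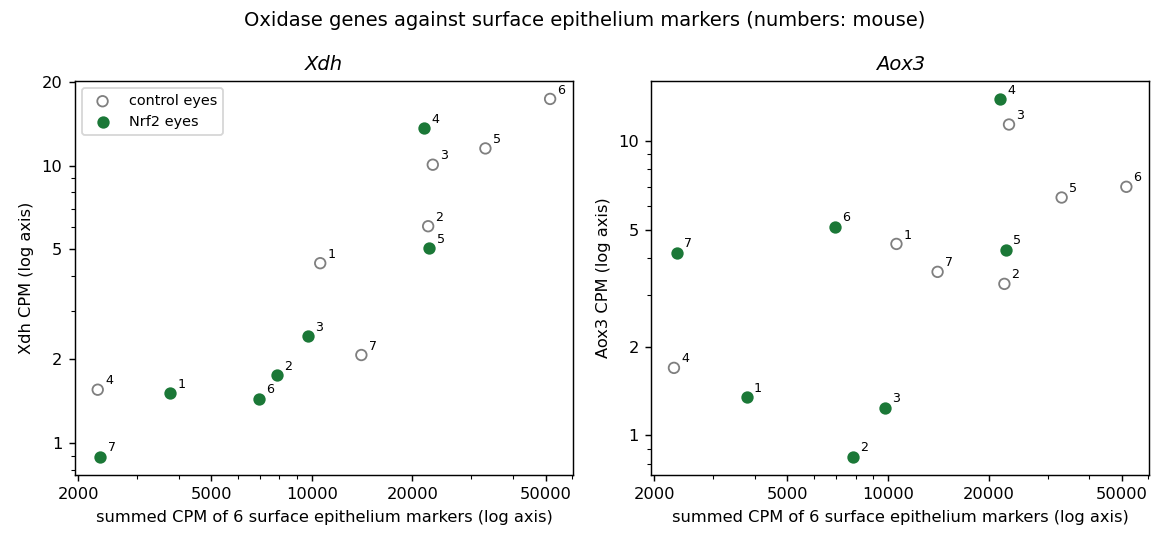
Xdh (left) and Aox3 (right) in each library against the summed level of 6 surface epithelium markers, all in CPM on log axes, with numbers naming the mouse. Xdh exceeds 5 CPM only in the 6 libraries whose marker sum is 21685 CPM or more, whatever their group, and Aox3 follows the sum less closely.

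Mocs1 (chromosome 17, 49428362 to 49455435) encodes the proteins of the first step, in which GTP is turned into the cyclic pterin precursor by an iron-sulfur enzyme. The lowest, median and highest levels were 26.4, 37.7 and 42.5 CPM in Nrf2 eyes and 18.3, 22 and 27.5 CPM in control eyes. Again the ranges met only through control 3 and Nrf2 4, and without these 2 libraries they were 29.0 to 42.5 and 18.3 to 23.5 CPM. Mocs1 was higher in 7 of 7 mice, with means of 36.3 ± 6.26 and 22 ± 3.04 CPM (SD, n = 7). On the log2 scale the fold change came to 0.84 (SE 0.15, edgeR adjusted p = 0.0236). The size was steady but the call was not. Without mouse 1, 3, 5 or 7 the log2 fold change was 0.75, 0.85, 0.83 and 0.77, with edgeR adjusted p of 0.0773, 0.0810, 0.0791 and 0.0894, and without mice 3 and 4 it was 0.91 (edgeR adjusted p = 0.05002).

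Mocs2 (chromosome 13, 114818236 to 114832275) encodes both subunits of molybdopterin synthase, which adds the sulfur atoms that will hold molybdenum. Its lowest, median and highest levels were 56.1, 75.8 and 107 CPM in Nrf2 eyes and 93.0, 102 and 126 CPM in control eyes. Apart from Nrf2 4, the highest of its group, the Nrf2 eyes all lay below the lowest control eye, at 56.1 to 80.1 CPM. The log2 fold change was -0.36 (SE 0.13, edgeR adjusted p = 0.18) with lower values in 6 of 7 mice. It passed without mouse 4 (-0.47, edgeR adjusted p = 0.0224), a fit in which 2050 of 16318 genes passed, 1005 of them lower. With voom and sample weights it also passed (-0.39, adjusted p = 0.0287), where 6.17% of all genes were lower. Both changes were in the direction opposite to Mocs1. Mocs2 passed in none of the other 13 alternatives, among them DESeq2 (-0.35, adjusted p = 0.0824) and the fit without mice 3 and 4 (-0.47, edgeR adjusted p = 0.0790).

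Mocs3 and Gphn act on either side of these steps. Mocs3 (chromosome 2, 168230622 to 168232594) encodes the enzyme that charges the small subunit of molybdopterin synthase with sulfur. Its means were 9.70 ± 2.15 CPM in Nrf2 and 10.6 ± 0.84 CPM in control eyes (SD, n = 7), a log2 difference of -0.03 (SE 0.18, edgeR adjusted p = 0.94). Gphn (chromosome 12, 78226379 to 78684772) encodes gephyrin, which inserts molybdenum and also anchors receptors at inhibitory synapses. Its lowest, median and highest levels were 18.4, 19.9 and 29.9 CPM in Nrf2 eyes and 21.7, 24.7 and 30.04 CPM in control eyes, and the groups overlapped through Nrf2 4. The log2 fold change was -0.15 (SE 0.10, edgeR adjusted p = 0.46). Without mice 3 and 4 it was -0.22 (edgeR adjusted p = 0.42), and that of Mocs3 was -0.12 (edgeR adjusted p = 0.84). With Nrf2 4 and control 3 left out, the groups of Aox1, Mocs1, Mocs2 and Gphn did not overlap, 4 of the 7 genes besides Mocos, against 7.10% of all genes. Overlap was judged on CPM without TMM scaling, unlike the fold changes. With all 14 libraries it was 0 of 7, and without mice 3 and 4 the count past the threshold was 1, Aox1.

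**Figure D3:**
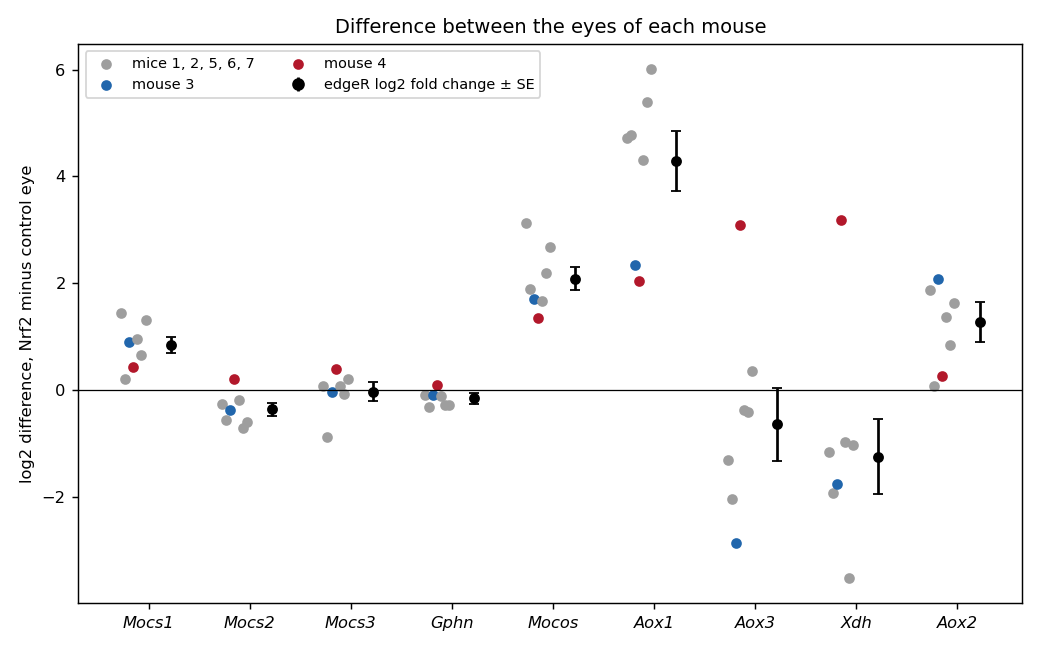
Difference between the eyes of each mouse, on the log2 scale as Nrf2 minus control after TMM scaling, for the 8 genes and Aox2, with the edgeR log2 fold change and its SE in black. Mocos, Aox1, Mocs1 and Aox2 are above 0 in all 7 mice, and mouse 4 (red) is the only mouse above 0 for Mocs2, Gphn and Xdh.

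The levels of the 8 genes differed widely among control eyes. Per kilobase of median annotated transcript, Mocs2 was highest at 96.7 ± 10.1 CPM (SD, n = 7). Then came Xdh at 13.1 ± 9.91, Mocs1 at 12.7 ± 1.75, Gphn at 7.65 ± 0.84, Mocs3 at 5.40 ± 0.43, Mocos at 4.60 ± 1.46, Aox3 at 3.45 ± 2.04 and Aox1 at 0.495 ± 0.574 CPM per kilobase. The Aox1 mean was carried by control 3, at 1.77 CPM per kilobase, and without that library it was 0.283 ± 0.134 (SD, n = 6). Of the 7 neighbouring pairs in this order, 4 differed when the signs of the 7 within-library differences were flipped in all ways (exact permutation test, two-sided), namely Mocs2 over Xdh, Mocs1 over Gphn, Gphn over Mocs3 and Aox3 over Aox1, each with an adjusted p of 0.0273. Xdh and Mocs1 were not separated by this exact test (adjusted p = 0.42), and the pairs that hold Mocos are given as levels only.

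The order depended on the transcript length used. With the longest annotated transcript of each gene it was Mocs2 at 22.8, Mocs1 at 8.31, Gphn at 7.07, Mocs3 at 5.40, Mocos at 4.28, Aox3 at 1.17, Xdh at 0.976 and Aox1 at 0.418 CPM per kilobase. The change of place was largest for Xdh, whose median transcript has 578 bases and whose longest has 7775. On this length Gphn over Mocs3 still differed and Mocs2 differed from its new neighbour Mocs1 (exact permutation test, adjusted p = 0.0365 each), but Mocs1 over Gphn did not (adjusted p = 0.141). In Nrf2 eyes Mocs2 was highest at 69.9 CPM per kilobase by median length, with Mocos at 18.2 and Aox1 at 6.78, whereas by longest length Mocos stood at 16.9, Mocs2 at 16.5 and Aox1 at 5.72. Aox1, the lowest of the 8 in control eyes on both lengths, had a mean above those of Aox3, Xdh and Mocs3 in Nrf2 eyes on both, differences that were not tested.

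Within the 7 Nrf2 eyes the amount of vector transcript varied, and each gene was set against it on log2 axes, with p-values adjusted over the 8 genes. Mocos was counted in this adjustment and had the smallest p, which lowers the adjusted p of most of the others. By r the calls of Mocs1, Mocs2 and Xdh, and by rho that of Aox1, passed only because Mocos was counted. For Mocos, whose values in these eyes also chose the set, Pearson's r was 0.93 and Spearman's rho 0.96, as a description. Aox1 rose with NFE2L2 (r = 0.98, exact permutation p = 0.00198, adjusted 0.00794, and rho = 0.89, p = 0.0123, adjusted 0.0492). Both were lowest in Nrf2 4, the eye with the least vector, and highest in Nrf2 1, the eye with the most. Mocs1 had a positive Pearson's r (0.77, exact permutation p = 0.0161, adjusted 0.0429) and did not pass by rank (rho = 0.71, exact permutation p = 0.0881, adjusted 0.176). Mocs2 (r = -0.84, exact permutation p = 0.0260, adjusted 0.0479) and Xdh (r = -0.83, exact permutation p = 0.0300, adjusted 0.0479) had negative coefficients, with rho of -0.71 and -0.57 (exact permutation adjusted p = 0.176 and 0.32). For Aox3 (r = -0.62), Gphn (r = -0.53) and Mocs3 (r = -0.06) the adjusted permutation p was 0.174, 0.258 and 0.826. With CPM in place of log2 CPM on both axes, r was -0.81 for Aox3 (exact permutation p = 0.0371, adjusted 0.0495) and -0.81 for Gphn (exact permutation p = 0.0478, adjusted 0.0546). The Aox3 value under 0.05 there also depended on counting Mocos. Without Nrf2 2 on log2 axes, r for Aox3 was -0.83 (exact permutation p = 0.0278, adjusted 0.0370).

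Nrf2 4 lay far from the other Nrf2 eyes on the vector axis, so the relations were recomputed without it. Over the remaining 6 eyes r was 0.93 for Mocos, 0.90 for Aox1 (exact permutation p = 0.0319, adjusted 0.128), 0.73 for Mocs1, -0.46 for Mocs2 and -0.42 for Xdh. None of Aox1, Mocs1, Mocs2 and Xdh passed after adjustment. These were the 4 genes past the threshold with all eyes, Mocs1, Mocs2 and Xdh only with Mocos counted. Leaving out the eyes farthest from the median vector level, Nrf2 4 and Nrf2 1, gave 0.90 for Mocos and 0.85 for Aox1 (exact permutation p = 0.10, adjusted 0.40) over 5 eyes. The coefficients of Mocos and Aox1 thus changed little, but the adjusted calls of those 4 genes rested on Nrf2 4, and those of Mocs1, Mocs2 and Xdh were also lost without Nrf2 1, 3, 5, 6 or 7. In control eyes, control 3 had the highest level of both Mocos and Aox1.

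**Figure D4:**
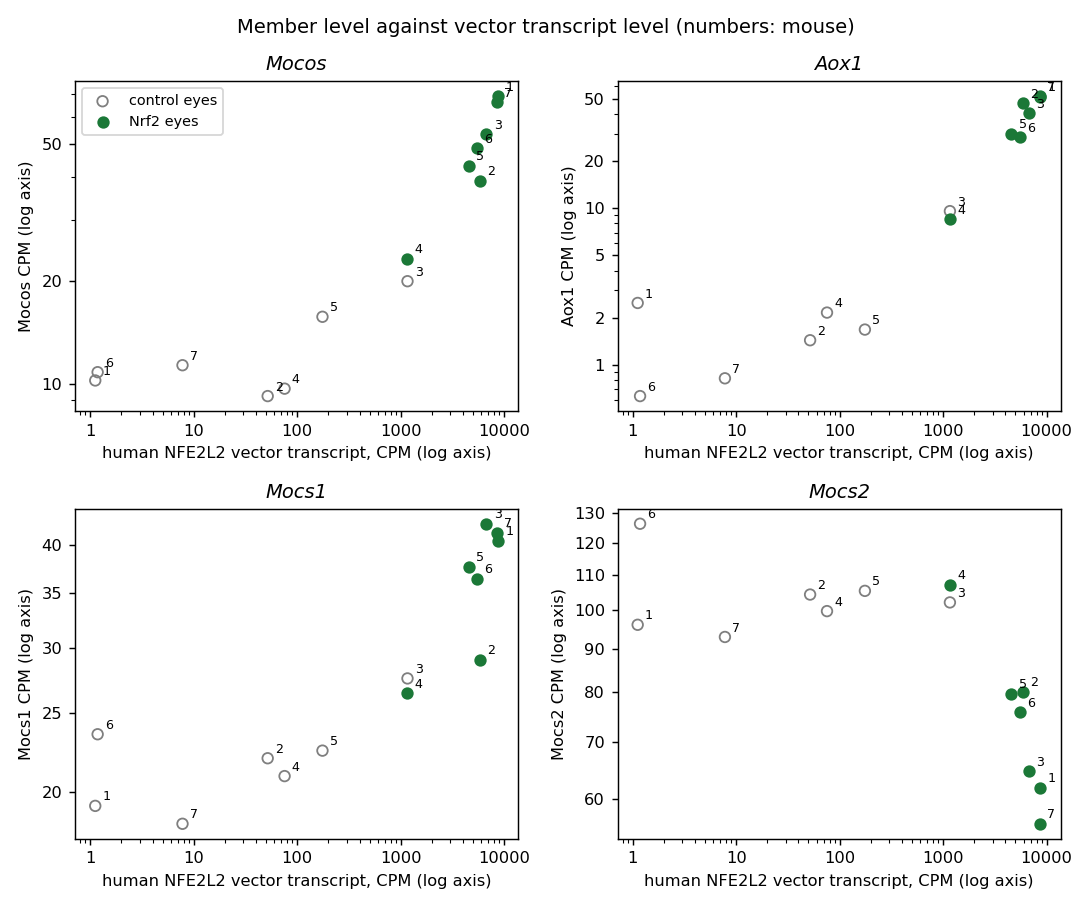
Level of Mocos, Aox1, Mocs1 and Mocs2 in each library against the human NFE2L2 vector transcript, all in CPM on log axes, with numbers naming the mouse. Control 3 and Nrf2 4 share a vector level of 1163 CPM and lie close to each other in all 4 panels, between the other control eyes and the other Nrf2 eyes for Mocos and Aox1.

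The genes whose pattern was most like that of Mocos over the 14 libraries, by Pearson's r of log2 CPM among 12025 genes, were Abcc4 (0.994), Gclm (0.993), Txnrd1, Esd and Tmem158 (each 0.991). Abcc4 encodes an efflux transporter, Gclm the modifier subunit of the enzyme that begins glutathione synthesis, and Txnrd1 thioredoxin reductase. For Aox1 they were Hmox1 (0.991), which encodes haem oxygenase, Fbxo2 (0.991) and Gclc (0.984), the catalytic partner of Gclm. For Xdh they were Ctnnd1 (0.969), which encodes an adhesion protein of epithelial junctions, Riox2 (0.963) and Egfr (0.953), the epidermal growth factor receptor. These coefficients are a description over libraries that share their groups, and the difference between the groups carries much of r for Mocos and Aox1.

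Genes around the pathway were read as 7 lists with 78 genes, of which 66 could be tested. In all, 5 rose and 0 fell in edgeR, against 2.94% and 0.491% of all genes, and the median log2 fold change was 0.16. At an unadjusted p under 0.05, 14 were higher and 4 lower, against 10.7% and 7.49% of all genes. By DESeq2 the counts were 9 and 1, against 7.60% and 4.33%, and by voom 14 and 4, against 9.73% and 6.17%. Without mice 3 and 4, 6 of the 66 passed, against 4.50% of all genes. Enzymes that use the cofactor without Mocos, and their electron donors, had 1 gene of 4 tested past the threshold. The lists are small, and a single gene is a large share of each, so no count here is read as particular to its list. The gene was Cyb5r3, the cytochrome b5 reductase that feeds electrons to the amidoxime-reducing components among other uses, at 320 ± 77.5 CPM in Nrf2 and 182 ± 20.5 CPM in control eyes (SD, n = 7). On the log2 scale the fold change came to 0.92 (SE 0.14, edgeR adjusted p = 0.0137), and Cyb5r3 was higher in 7 of 7 mice. Suox, which encodes sulfite oxidase, had a log2 fold change of -0.12 (edgeR adjusted p = 0.80), Marc2, an amidoxime-reducing component, 0.20 (adjusted p = 0.48) and its donor Cyb5b 0.23 (adjusted p = 0.31). Marc1 had at most 7 counts and was not tested. Without mouse 7 the call of Cyb5r3 was lost (0.85, edgeR adjusted p = 0.0586).

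Sulfur and iron-sulfur cluster supply serves several of these enzymes, since Mocs1, xanthine dehydrogenase and the aldehyde oxidases carry iron-sulfur clusters. Of its 25 genes, all tested, 0 passed in edgeR, with 5 higher and 0 lower at an unadjusted p under 0.05, and DESeq2 and voom called 2 and 7 higher and 0 lower, counts to be read against 10.7% (unadjusted), 7.60% (DESeq2) and 9.73% (voom) higher among all genes. The log2 fold changes lay between -0.25 and 0.62 with a median of 0.25, and 22 of 25 were above 0, as were 45.2% of all genes. Nearest to the threshold was Iscu, the scaffold on which clusters are built (0.62, edgeR adjusted p = 0.051, higher in 7 of 7 mice), a gene named after its value was seen.

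Purine breakdown supplies the substrates of xanthine dehydrogenase. In that list 2 of 13 genes tested passed, both higher, beside the 2.94% of all genes that were higher. Ampd3, which encodes an AMP deaminase, stood at 48.2 ± 20.4 CPM in Nrf2 and 5.35 ± 3.02 CPM in control eyes (SD, n = 7), with no overlap between the groups, a log2 fold change of 3.37 (SE 0.49, edgeR adjusted p = 0.0128) and higher values in 7 of 7 mice. Hprt, the enzyme that salvages hypoxanthine before it can be oxidised, stood at 123 ± 22.2 and 78.7 ± 12.4 CPM (SD, n = 7), a log2 difference of 0.77 (SE 0.15, edgeR adjusted p = 0.0281), with the Nrf2 eye above the control eye in 6 of 7 mice. Among urate transporters 1 of 5 tested passed, Abcc4, at 590 ± 258 CPM in Nrf2 and 98.0 ± 39.7 CPM in control eyes (SD, n = 7). On the log2 scale the fold change came to 2.64 (SE 0.32, edgeR adjusted p = 0.00936), and the groups did not overlap. In GTP supply, the starting material of the cofactor, 1 of 12 passed, Nme1, a nucleoside diphosphate kinase (log2 fold change 0.49, SE 0.10, edgeR adjusted p = 0.0370, higher in 6 of 7 mice), whose sequence is so close to that of Nme2 that the split of counts between them is uncertain. Ampd3 and Abcc4 passed with each mouse left out, but the calls of Hprt and Nme1 were lost without any of mice 1, 2, 3, 5, 6 and 7, with edgeR adjusted p from 0.0606 to 0.109 and from 0.0663 to 0.137. The inhibitory synapse partners of gephyrin gave 0 of 6 in edgeR, 0 at an unadjusted p under 0.05, 0 by DESeq2 and 1 lower by voom, and neither aldehyde oxidase of the remaining list passed in edgeR, whereas Aox2 was higher at an unadjusted p under 0.05 and by DESeq2 and voom.

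**Figure D5:**
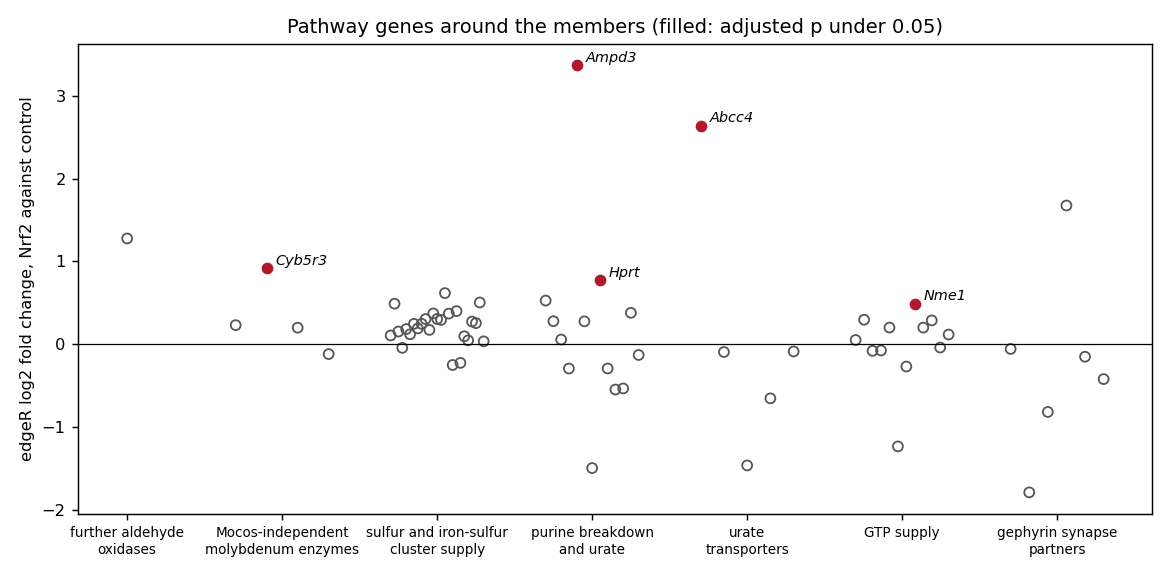
Log2 fold change (edgeR, Nrf2 against control) of the 66 tested genes of the 7 lists, with filled points for an adjusted p under 0.05. The 5 filled points, Cyb5r3, Ampd3, Hprt, Abcc4 and Nme1, are all above 0, and the iron-sulfur genes cluster between -0.25 and 0.62.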

How the data were processed

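The authors injected the vectors under the retina, isolated the RPE, amplified its RNA with a low-input kit, sequenced in 2 runs that are not assigned to libraries, aligned reads with STAR to mm10 with Ensembl 91 annotation and counted them with featureCounts, and in parallel estimated transcript levels with Salmon 0.9.1, summed per gene with tximport. The authors deposited estimated counts, 1 whole number per gene and library, without normalization. Their row set, 21751 protein-coding genes and 12145 pseudogenes of 34453 rows, points to Salmon. The human NFE2L2 row is the vector transcript and was not tested among the genes. Positions and lengths are from GENCODE M21 (GRCm38), matched by 34401 of 34452 mouse genes.

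The 8 genes, the lists, the markers and the rule for named genes were chosen with earlier results of these data known. Named are the 8 genes, NFE2L2, list genes past the threshold, all detected genes of the lists of aldehyde oxidases and Mocos-independent enzymes, and the genes most alike by Pearson's r among tested genes of at least 5 CPM. The quasi-likelihood test of edgeR 4.0.16 in R 4.3.3 used mouse and treatment as terms, TMM scaling and filterByExpr with a minimum count of 10, with Benjamini-Hochberg adjustment over 16289 genes and a threshold of 0.05. SE were derived from the F statistic. Pairing comes from the label that names the animal. The correlation of the deviations of both eyes from their group means was -0.01, 0.13, 0.06, -0.29, 0.29, -0.14 and 0.13 in mice 1 to 7, over 17130 genes. Relations with the vector used log2 CPM with a prior count of 2. Alternatives were no replicate block, RLE and upper-quartile scaling, DESeq2 1.42.0, voom with quality weights (limma 3.58.1), no filter, a mean of at least 10 counts, and mice left out. Totals of 16548349 to 50543008 counts left counting error small except for Aox2, Aox3, Aox4, Xdh and, in control eyes, Aox1.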

Additional observations from a re-analysis of the deposited data

Results flagged for a closer look

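For the 8 genes and Aox2, 18 groups of 7 libraries were tested for a sample far from the rest. Of these, 6 were marked, and 4 of them concern Nrf2 4, the Nrf2 eye with the least vector transcript. Chance marks about 1 in 20 of independent groups, but these groups share the same 14 libraries. The share marked over all genes was not taken, so the count is not read as particular to these genes. In Nrf2 4, Aox3 was at 13.9 CPM, Xdh at 13.6 CPM and Gphn at 29.9 CPM, each the highest Nrf2 eye, and Aox2 at 0.327 CPM, the lowest. Aox1 in control 3, the control eye with the vector level of Nrf2 4, was at 9.59 CPM, the highest of its group. Mocs2 in control 6, at 126 CPM, was also the highest of its group.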

How the results depend on the processing

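Aox1 passed the threshold in all 15 alternatives, with log2 fold changes from 3.76 to 5.08, and Mocs1 in 10 of 15. Mocos ranged from 1.92 to 2.31. Of the 7 genes besides Mocos, 2 passed in the paired fit, 1 without mice 3 and 4, and 1 to 4 with each mouse left out. Of the list genes, 5 passed in the paired fit, 9 with no replicate block, 10 with DESeq2, 18 with voom, 3 with no filter and 2 to 10 with each mouse left out. Over all genes, 559 passed, 1100 with no replicate block, 1943 with DESeq2, 2590 with voom, 347 with no filter, 2050 without mouse 4 and 111 to 2050 with each mouse left out. Mocs3 changed sign with no replicate block (0.000456), voom (0.0266) and without mouse 2 (0.0797), and without a single mouse it lay between -0.11 and 0.0797. Of the 8 relations with the vector, 5 had an adjusted p under 0.05, with Mocos, a description only, among them and counted in the adjustment. Those of Mocs1, Mocs2 and Xdh depended on counting it. The number was 0 without Nrf2 4 and Nrf2 1, and 0 to 6 with each eye left out. Signs turned for Aox3 (0.16), Mocs3 (0.54) and Gphn (0.48) without Nrf2 4 and Nrf2 1. They also turned for Mocs3 and Gphn without Nrf2 4, with ranges of -0.58 to 0.54 and -0.74 to 0.68 when each eye was left out. Of the neighbouring levels per length, 4 pairs differed, and 0 to 5 with each eye left out, where 6 libraries allow no exact p below 0.03125. The count of 5, without control 6, includes Mocos over Aox3, a pair given as levels only. The cause was not tested. Low counts limit Aox2, Aox3, Aox4, Xdh and, in control eyes, Aox1.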
